A study of Mus musculus with 3 samples.

Results

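The genes described here encode the protein parts of the mitochondrial ribosome that carry an Mrpl or Mrps symbol. They were taken by symbol, as every gene on the array whose name starts with Mrpl or Mrps followed by a digit and that had a probe set annotated to 1 gene. This gave 76 of the 18193 genes on the array, 47 with an Mrpl and 29 with an Mrps symbol, read by 156 probe sets. All 76 passed the expression filter used for all genes (mean log2 signal over the 3 arrays at least that of a signal of 200, after scaling), as did 9723 genes in all. The symbol rule itself used no measured value, though it was chosen with earlier results of these data known. B16 is a mouse melanoma cell line of C57BL/6 origin. Its RNA was collected at 0, 2 and 4 h of exposure to 1 µg/ml doxorubicin, an anthracycline that intercalates into DNA and blocks topoisomerase II, in serum-containing medium, and each time point was read on 1 Affymetrix Mouse430_2 array. There were no replicates and no untreated culture at 2 h or 4 h. Drug exposure and time in culture therefore cannot be told apart, and every difference below is between single arrays, with no test and no spread between cultures.

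The mitochondrial ribosome translates the few mRNAs encoded in mitochondrial DNA, all of which specify subunits of the respiratory chain and ATP synthase. Its ribosomal RNAs come from mitochondrial DNA, while its proteins are encoded in the nucleus, made in the cytosol and imported. It has a small subunit, which reads the mRNA, and a large subunit, which forms the peptide bond. Many of its proteins descend from bacterial ribosomal proteins, and the others have no bacterial counterpart and were added in the mitochondrial lineage. Of the members, 49 belong to the large subunit, 26 to the small subunit, and 1, Mrps36, has since been described as a component of the 2-oxoglutarate dehydrogenase complex. Mrps30 and Mrps18a carry small-subunit names but sit in the large subunit and were counted there.

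Nuclear genes of mitochondrial proteins are known for promoters bound by NRF1, by the ETS factor GABPA and by YY1, and several are targets of Myc. RefSeq promoters (build GRCm38.p6, 250 bases before and 50 after each annotated start) were on hand for 67 of the members. In 7 of them the NRF1 word GCGCATGCG was present on either strand, and those words are shown because the members that carry them lay low at 4 h. Each line gives the word nearest the annotated start, in capitals (10 letters where the word and its reverse complement overlap), with up to 10 bases on each side, 5′ to 3′ on the gene's strand.
Mrpl9, chr3:94443298-94443327, plus strand: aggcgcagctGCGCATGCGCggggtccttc
Mrps18b, chr17:35916646-35916674, minus strand: aacggcccgaCGCATGCGCactgggagca
Mrpl32, chr13:14613042-14613070, minus strand: gcggacttaaCGCATGCGCtcagcccgcg
Mrpl22, chr11:58171621-58171649, plus strand: gcctcggactGCGCATGCGtatagtcagc
Mrpl17, chr7:105811080-105811108, minus strand: ccgagttactGCGCATGCGtcctctgaga
Mrpl10, chr11:97041437-97041465, plus strand: cccagctccaCGCATGCGCatagcggccc
Mrpl39, chr16:84735350-84735379, minus strand: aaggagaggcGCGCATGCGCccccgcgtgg
The words of Mrpl9, Mrpl32, Mrpl22 and Mrpl17 began within 33 bases of the annotated start, at positions -28, -23, -33 and -11 (position -1 being the base before the start). Those of Mrps18b, Mrpl10 and Mrpl39 began at -224, -135 and -125. For comparison, the 120 bases before the start are shown for 4 members whose stretch overlaps no other annotated gene: Mrps22, with an ETS word next to the start and a low signal at 4 h, Mrpl32, with 2 separate NRF1 words, Mrpl20, with an E-box, and Mrps14, with a GC box and a high signal at 4 h. Capitals mark every searched word.
Mrps22, chr9:98601680-98601799, minus strand: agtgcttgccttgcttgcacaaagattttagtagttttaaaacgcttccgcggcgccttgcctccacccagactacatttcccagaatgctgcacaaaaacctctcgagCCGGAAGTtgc
Mrpl32, chr13:14613038-14613157, minus strand: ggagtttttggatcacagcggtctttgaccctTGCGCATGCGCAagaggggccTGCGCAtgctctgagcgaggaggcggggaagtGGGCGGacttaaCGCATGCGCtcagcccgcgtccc
Mrpl20, chr4:155802758-155802877, plus strand: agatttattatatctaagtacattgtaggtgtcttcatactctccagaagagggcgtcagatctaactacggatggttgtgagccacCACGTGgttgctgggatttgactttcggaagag
Mrps14, chr1:160195095-160195214, plus strand: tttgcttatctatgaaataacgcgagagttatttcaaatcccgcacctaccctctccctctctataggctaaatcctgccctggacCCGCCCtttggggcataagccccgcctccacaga

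The labels name the cells as B16 melanoma, but the description field names BMDM and an "ET" treatment that is not expanded, so defining markers were read first. All 8 pigment cell markers were at or above a signal of 200 at 0 h, and 7 were at 2 h and at 4 h, with summed signals of 169136, 175853 and 182397. Of 10 macrophage markers, 5, 4 and 4 reached 200, with sums of 3815, 4729 and 5230, and medians of 207, 163 and 151, and Itgam, Ptprc and Marco were under the floor of 100 on every array. Of 7 fibroblast markers 3 reached 200 on each array. The ratio of 3′ to 5′ signal was 1.07, 1.10 and 1.18 for Actb and 0.826, 0.824 and 0.803 for Gapdh at 0, 2 and 4 h. Per the file headers, the 4 h array was hybridised 1.57 h after the 0 h array, so array run and the 4 h time point cannot be told apart. The headers also give a different module for each array (3, 4 and 1 at 0, 2 and 4 h). Module and time point therefore cannot be told apart in any comparison. The macrophage sum was higher at each step along with Cd68, its brightest marker (1884, 3044 and 3699 at 0, 2 and 4 h), while the list's median was lower at each step. In the pigment list Sox10 (11709.7, 2640.0 and 892 at 0, 2 and 4 h) and Mitf (6576, 2031 and 739 at 0, 2 and 4 h) were lower at each step, against the sum. The part of these values in the results was not tested.

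At 2 h, as scaled here, most members stood slightly above their 0 h signal. Of the 76 members, 62 were above their 0 h signal, as were 4763 of the 9723 genes in all. Their median log2 ratio was 0.23, against -0.01 for all genes, and the ratios ran between -0.64 (Mrpl9) and 0.82 (Mrps18c). With scaling to the spiked-in hybridisation controls BioB, BioC, BioDn and CreX (spike-in scaling), 37 members were above 0 h at 2 h. The medians were then -0.005 for the members and -0.25 for all genes. These controls are added at hybridisation and do not measure the amount of RNA in the sample. No member was at least 2-fold lower or higher at 2 h against 0 h, where 5.69% of all genes were lower by that much and 1.41% higher. Among genes with a signal of 1000 or more, a filter chosen after seeing the data, these shares were 1.01% and 0.284%. The median member signal was 2610 at 2 h and 2398 at 0 h, against 743 and 836 over all genes. Fewer cells that express a gene and less RNA per cell cannot be told apart in such bulk samples.

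At 4 h the members lay farther apart, on both sides of their 0 h signals. Mrpl44, Mrps2 and Mrpl9 were at least 2-fold lower at 4 h against 0 h and Mrpl11 was at least 2-fold higher. These are 3 and 1 of 76 members (3.95% and 1.32%), against 14.4% of all genes lower and 2.32% higher. The median member ratio was 0.19, against -0.07 for all genes, a relative median of 0.26. That relative value was 0.05 after quantile normalization and 0.04 after intensity-dependent loess scaling, and 0.097 among genes as bright as most members (the filter of 1000). At that brighter filter 2 members were lower and 1 higher, against 5.52% and 1.55% of 3880 genes. The share of members above the median of all genes was 65.8% as scaled here, 55.3% after quantile normalization and 51.3% after loess.

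Where 0 lies on the ratio scale is set by the scaling. Scaling to the spiked-in hybridisation controls put the 4 h median at -0.13 for the members and -0.39 for all genes, while equal medians of passing probe sets put it at 0.50 and 0.24. The signs of single members with ratios near 0 follow that choice. Between 4 h and 2 h, 1 member (Mrps2, with a log2 ratio of -1.13) was at least 2-fold lower and none higher, where 5.41% of all genes were lower and 0.843% higher (1.75% and 0.155% at the filter of 1000). The median was -0.07 for the members and -0.06 for all genes.

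**Figure D1:**
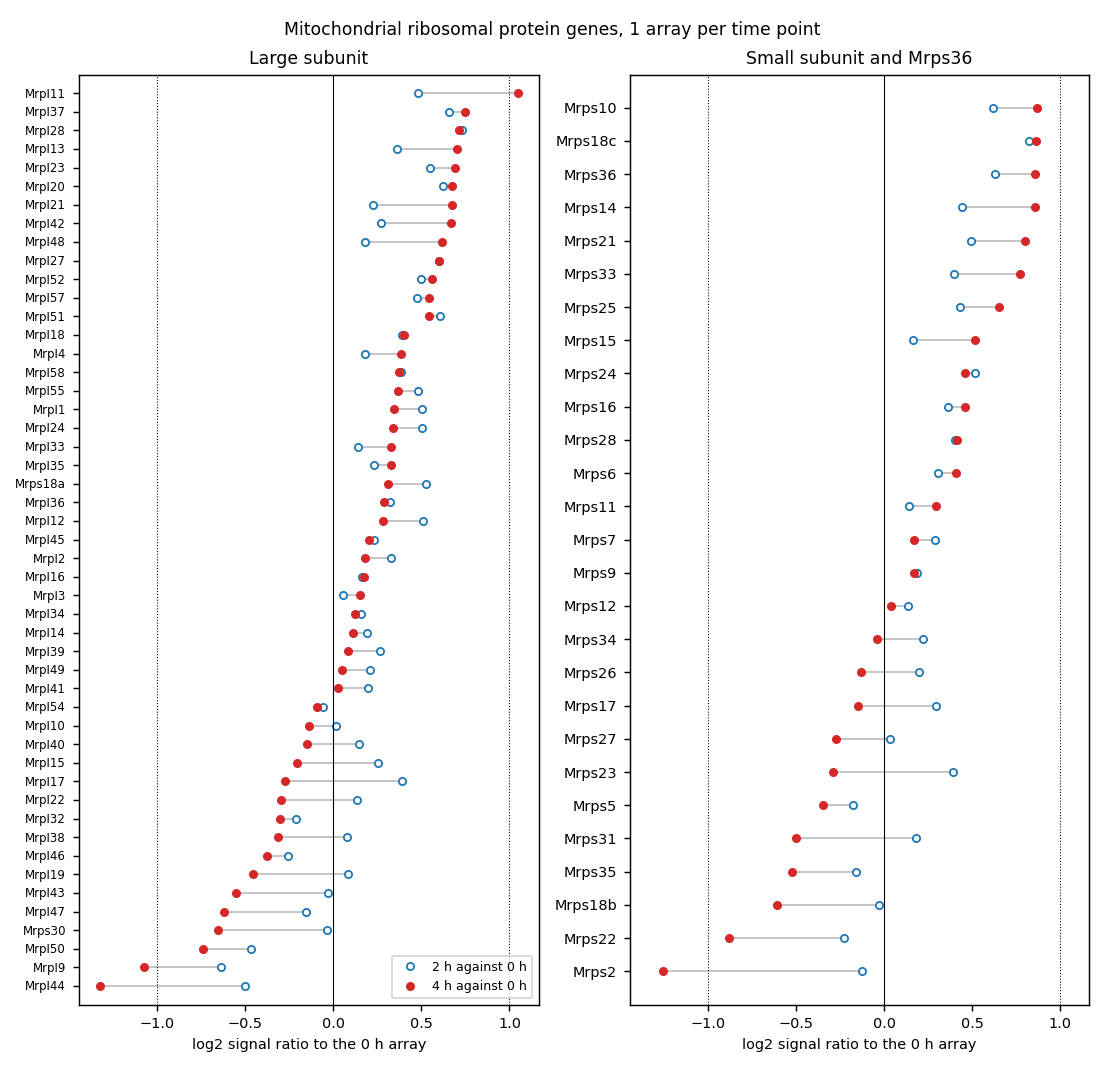
Log2 signal ratio to the 0 h array (horizontal axis) of every mitochondrial ribosomal protein gene (vertical axis, ordered by the ratio at 4 h), with the large subunit on the left and the small subunit and Mrps36 on the right; open points are 2 h, filled points 4 h, and dotted lines mark 2-fold. At 2 h all members lie within 2-fold, and at 4 h Mrpl44, Mrpl9 and Mrps2 lie below and Mrpl11 above it (with equal medians, 1 member lay below and 10 above).

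Of the members, 49 were above their 0 h signal at both 2 h and 4 h (64.5%, against 37.1% of all genes), 13 were above it at 2 h and below it at 4 h (17.1%, against 11.9%), and 14 were below it at both times (18.4%, against 42.0%). All 14 of the last group were lower at each step. As scaled here, no member had its lowest signal at 2 h, a course that 20.1% of all genes took. That absence depends on the scaling, since spike-in scaling lowers the ratios at 2 h (median -0.005 for the members). With spike-in scaling, 33 members rather than 49 lay above 0 h at 4 h, and 37 rather than 62 at 2 h.

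**Figure D2:**
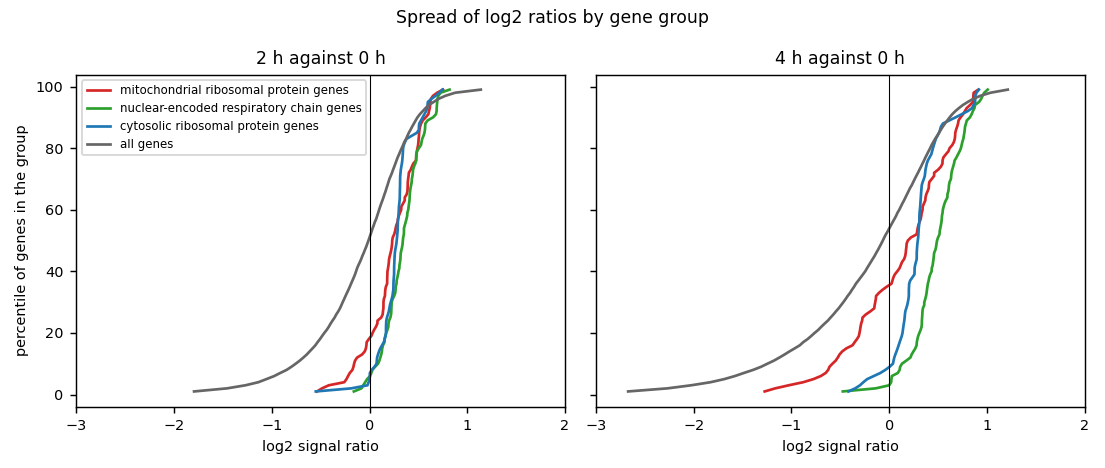
Percentile of genes (vertical axis) against log2 signal ratio (horizontal axis) at 2 h (left) and 4 h (right) against 0 h, for the 76 mitochondrial ribosomal protein genes, 84 respiratory chain genes, 42 cytosolic ribosomal protein genes and all 9723 genes, 1 array per time point. At 4 h the members' curve is wider than those of the other 2 groups, narrower than that of all genes (SD 0.53 against 0.80), and reaches below 0, with a median of 0.19 for the members (-0.13 with spike-in scaling) against 0.49 for respiratory chain genes.

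In what follows a number in brackets after signals or a symbol is the log2 ratio at 4 h against 0 h, and signals are those of the gene's brightest passing probe set after scaling. The lowest member at 4 h was Mrpl44, a large-subunit protein with a ribonuclease III-like fold and no bacterial ribosomal counterpart. Its brightest probe set had signals of 2169, 1530.3 and 864 at 0, 2 and 4 h, a log2 ratio of -1.33 at 4 h (2.51-fold lower). The signal was lower at each step, and all 4 of its passing probe sets were at least 2-fold lower at 4 h, with log2 ratios between -2.07 and -1.33. The brightest probe set, which stands for the gene here, showed the smallest of the 4 differences.

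Mrps2, a small-subunit protein with a bacterial counterpart, had signals of 1166, 1067 and 488 at 0, 2 and 4 h, with a log2 ratio of -1.26 at 4 h. Its 0 h and 2 h signals were close and its 4 h signal was less than either. Its other probe set read 782, 396 and 267 at 0, 2 and 4 h, a log2 ratio of -1.55, and there most of the difference lay between 0 h and 2 h. Mrpl9, a large-subunit protein with a bacterial counterpart, had 2014, 1293 and 954 at 0, 2 and 4 h, a log2 ratio of -1.08. It was also the lowest member at 2 h, and its other 2 probe sets had log2 ratios of -1.19 and -0.78 at 4 h. Mrpl44, Mrps2 and Mrpl9 stayed below 0 h at 4 h under each of the 13 alternative settings in which they were measured.

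The next 7 members from the bottom stood between log2 ratios of -0.88 and -0.53, short of 2-fold. Mrps22, a small-subunit protein found only in mitochondria, had 1431, 1221 and 778 at 0, 2 and 4 h (-0.88). Mrpl50 had 1407, 1016 and 842 at 0, 2 and 4 h (-0.74). Both are mitochondria-specific proteins, and each was lowest at 4 h. Mrps30, known also as a programmed cell death protein, had 1449, 1411 and 918 at 0, 2 and 4 h (-0.66). Mrpl47, which has a bacterial counterpart at the exit of the peptide tunnel, had 1059.7, 952 and 687 at 0, 2 and 4 h (-0.62). In both, the 0 h and 2 h signals were close and the 4 h signal lower. Mrps18b had 2594, 2543 and 1702 at 0, 2 and 4 h (-0.61). Mrpl43 had 2529, 2474 and 1721 at 0, 2 and 4 h (-0.56), and Mrps35 had 1644, 1471 and 1142 at 0, 2 and 4 h (-0.53). These also differed mainly between 2 h and 4 h.

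The highest member at 4 h was Mrpl11, counterpart of the bacterial protein at the base of the stalk where translation factors bind. It had signals of 1869, 2603 and 3861 at 0, 2 and 4 h, a log2 ratio of 1.05 (2.07-fold higher), and was higher at each step. Its 3 passing probe sets did not give 1 size: the other 2 had log2 ratios of 0.66 and 0.09 at 4 h. With the mean over probe sets, with quantile normalization, with loess or with spike-in scaling, no member was at least 2-fold higher.

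The next members below it belonged mostly to the small subunit. Mrps10 had 1494, 2294 and 2724 at 0, 2 and 4 h (0.87), Mrps14 had 3096, 4196 and 5601 at 0, 2 and 4 h (0.86), and both, which have bacterial counterparts in the head of the small subunit, were higher at each step. Mrps18c, 1 of 3 relatives of a single bacterial small-subunit protein, had 1290.5, 2283 and 2344 at 0, 2 and 4 h (0.86), with nearly all of the difference present at 2 h (0.82). Its relative in the large subunit, Mrps18a, named after its value was seen, had a log2 ratio of 0.31 at 4 h, and its small-subunit relative Mrps18b one of -0.61. The 3 relatives thus stood in the upper, middle and lower parts of the family. Mrps21 had 1834, 2577 and 3189 at 0, 2 and 4 h (0.80) and Mrps33, a mitochondria-specific protein, had 3582, 4720.4 and 6124 at 0, 2 and 4 h (0.77). Mrps36, the gene outside the ribosome, had 1703, 2631 and 3089 at 0, 2 and 4 h (0.86). Mrps21, Mrps33 and Mrps36 were higher at each step.

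Among large-subunit proteins Mrpl37, Mrpl28 and Mrpl13 followed Mrpl11. Mrpl37, a mitochondria-specific protein, had 1013, 1598 and 1702 at 0, 2 and 4 h (0.75). Mrpl28 had 3566, 5907 and 5837 at 0, 2 and 4 h (0.71), but its other passing probe sets had log2 ratios of 0.60 and 0.07 at 4 h. Mrpl13, counterpart of a conserved bacterial large-subunit protein, had 5058, 6489 and 8239 at 0, 2 and 4 h (0.70). Mrpl37 had nearly reached its 4 h signal at 2 h, Mrpl28 was slightly higher at 2 h than at 4 h, and Mrpl13 was higher at each step.

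Among the probe sets that stand for the genes here, the brightest at 0 h were those of Mrpl51, Mrpl12 and Mrpl42 in the large subunit and of Mrps12, Mrps33 and Mrps7 in the small subunit. Probe sets differ in how strongly they bind, so brightness does not rank the genes by mRNA level. Mrpl51 had 10821, 16488 and 15782 at 0, 2 and 4 h, a log2 ratio of 0.54, but its other probe set, with no suffixed name, gave 0.01. Mrpl12, counterpart of the bacterial stalk protein that recruits translation factors, had 6983, 9929 and 8479 at 0, 2 and 4 h (0.28), highest at 2 h. Mrpl42 had 6397, 7713 and 10171 at 0, 2 and 4 h (0.67) and was higher at each step. Mrps12, counterpart of the bacterial decoding-site protein in which streptomycin resistance arises, had 4493, 4937 and 4607 at 0, 2 and 4 h (0.04). Mrps7, a bacterial-type protein of the small-subunit head, had 3176, 3874 and 3574 at 0, 2 and 4 h (0.17). Both small-subunit genes differed little between the arrays.

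Probe sets of 1 gene can read different transcript ends, and 32 members had at least 2 passing probe sets. The SD of the log2 ratio between probe sets of a member was 0.38 at 2 h and 0.44 at 4 h, against 0.40 and 0.48 over all genes, and all probe sets shared a sign at 4 h in 23 of the 32. Mrpl15, counterpart of a bacterial large-subunit protein, showed a wide gap between bright probe sets. Its brightest probe set at 0 h read 6637, 7147 and 1861 at 0, 2 and 4 h (-1.83), while another, annotated to the same sequence record, read 5693, 6778 and 4933 at 0, 2 and 4 h (-0.21). The first was well below its earlier values at 4 h and the second was near them. The 3 remaining probe sets of Mrpl15 lay between -0.15 and 0.03.

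Mrpl49 and Mrpl1 gave opposite pictures by probe set. For Mrpl49, 1 probe set read 1054, 731 and 470.2 at 0, 2 and 4 h (-1.16) and the other 1197, 1383 and 1237 at 0, 2 and 4 h (0.05). For Mrpl1, 1 passing probe set read 469, 324 and 256 at 0, 2 and 4 h (-0.88) and the other 312, 441 and 395 at 0, 2 and 4 h (0.34). In each gene 1 probe set was lower at each step and the other was highest at 2 h. Mrps9 had 4 passing probe sets with log2 ratios between -0.75 and 1.41 at 4 h, the highest of them from a probe set near the floor at 0 h (106, 293 and 281 at 0, 2 and 4 h). Mrps5 and Mrpl17 also had probe sets more than 1 log2 unit apart in a comparison. Mrps5 had 4 probe sets between -0.35 and -0.15 at 4 h, with the gap at 2 h (0.53 against -1.12), and Mrpl17 had 3 between -0.28 and 0.55 at 4 h, with the gap between 4 h and 2 h (-0.67 against 0.45).

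**Figure D3:**
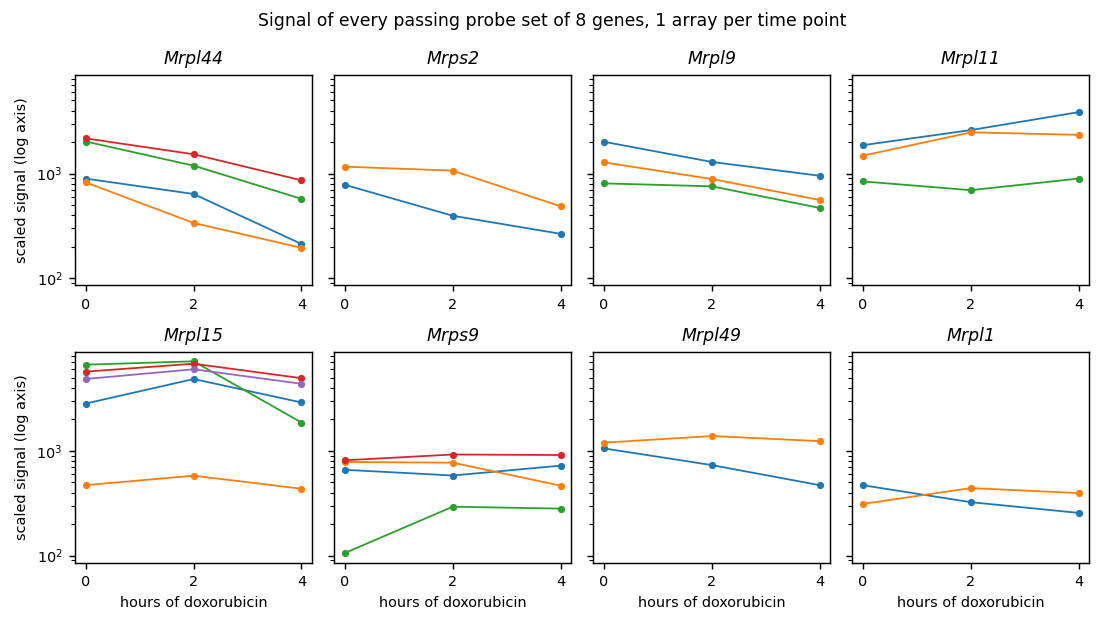
Scaled signal (vertical log axis) at 0, 2 and 4 h of doxorubicin (horizontal axis) for every passing probe set, 1 line each, of 8 mitochondrial ribosomal protein genes. All 4 probe sets of Mrpl44 run to lower signals at 4 h, whereas in Mrpl15 1 probe set at 1861 departs from the other bright ones at 4 h and in Mrpl49 the 2 probe sets diverge.

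The medians of the 2 subunits were close. At 4 h the median log2 ratio was 0.17 for 26 small-subunit members and 0.20 for 49 large-subunit members, a difference of -0.03. It was 0.18 with suffixed probe sets left out and 0.15 at the filter of 1000. At 2 h the medians were 0.25 and 0.23.

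Genes for proteins classed as mitochondria-specific stood lower at 4 h than those for proteins with a bacterial counterpart. The split follows the current nomenclature of ribosomal proteins, in which Mrps18a and Mrps18b have mitochondria-specific names although they are relatives of a bacterial protein. At 4 h the median was -0.07 for 30 mitochondria-specific members (14 above 0 h) and 0.33 for 45 members with a bacterial counterpart (34 above 0 h), a difference of -0.40 that ran between -0.40 and -0.30 over all settings. The shares above 0 h were 46.7% and 75.6%, against 46.1% of all genes. Relative to all genes the medians were -0.004 and 0.39. As scaled here, the mitochondria-specific members thus lay near genes at large, and those with a bacterial counterpart lay above them. The gap was wider in the small subunit, where 10 mitochondria-specific members had a median of -0.28 and 16 with a bacterial counterpart one of 0.41. In the large subunit the medians were 0.07 for 20 members and 0.29 for 29. With Mrps18a and Mrps18b counted with a bacterial counterpart, the difference was -0.38 over both subunits and -0.68 in the small subunit. Of the 10 small-subunit proteins classed as mitochondria-specific, Mrps33 and Mrps25 (named after its value was seen, 0.65) were above 0 h at 4 h and 8 were below. At 2 h the medians were 0.20 and 0.29, so most of the gap was absent then. The split was looked at with ratios of these arrays known, the classes overlap widely, and no test was made.

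Among the other genes of mitochondrial translation, the list for assembly had a median below that of all genes under every setting run. So did the list for tRNA synthetases, except at the filter of 1000, which none of them passed. The medians of the lists for translation factors and for transcription lay at 0 or above under some settings. Among these was the filter of 1000 (0.28 and 0.005), which only some genes of either list passed. Of 5 ribosomal proteins without an Mrp symbol, 4 were on the array. All of these passed and none was beyond 2-fold, where 14.4% of all genes were lower and 2.32% higher. The 4 were Chchd1 (0.33), Dap3 (0.32), Ptcd3 (0.19) and Gadd45gip1 (-0.39). Of 20 passing genes for assembly and rRNA modification, 7 were at least 2-fold lower and none higher (35.0%, against 14.4% of all genes lower), with a median of -0.55. Mtg2, a GTPase of large-subunit assembly, had 761, 466 and 81.3 at 0, 2 and 4 h, at least 7.61-fold lower since the 4 h signal was under the floor. Mterf4, which brings an rRNA methyltransferase to the ribosome, had 409.6, 369.7 and 128 at 0, 2 and 4 h (-1.68). The highest of the list were Mpv17l2 (0.66), a large-subunit assembly factor, and Trmt61b (0.46), an RNA methyltransferase. Relative to all genes the assembly list's median was -0.48, and between -0.61 and -0.21 over all settings.

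Of 8 passing translation factors 2 were at least 2-fold lower (25%, against 14.4% of all genes). Mtfmt, which formylates the initiator tRNA, had 556, 394 and 105 at 0, 2 and 4 h (-2.41), and Pdf, the peptide deformylase that removes the formyl group from new chains, had 1370.3, 1190.4 and 685 at 0, 2 and 4 h (-1.0002). Initiation factor Mtif2 (0.50) and elongation factor Tufm (0.49, with an SD of 0.65 between its 2 probe sets) were the highest. Of 14 passing mitochondrial tRNA synthetases 2 were at least 2-fold lower, Pars2 (-1.33) and Yars2 (-1.12, with an SD of 0.72 between its 2 probe sets). Their share of 14.3% was that of all genes (14.4%), and the list's median was -0.45. The highest were Vars2 (0.58) and Rars2 (0.15).

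Of 14 passing genes for mitochondrial transcription and its nuclear regulators, 3 were at least 2-fold lower and 1 higher (21.4% and 7.14%, against 14.4% and 2.32% of all genes). Myc had 1613, 109 and 128 at 0, 2 and 4 h, a log2 ratio of -3.88 at 2 h and -3.66 at 4 h. Pprc1, a coactivator related to PGC-1 that acts with NRF1, had 1745, 924 and 311 at 0, 2 and 4 h (-2.49). Both were already lower at 2 h, and for Myc the 2 h and 4 h signals lay just above the floor. Slirp, which stabilises mitochondrial mRNAs together with Lrpprc, had 2198, 3489.6 and 4574 at 0, 2 and 4 h (1.06), and Lrpprc had 1571, 1730.1 and 2072 at 0, 2 and 4 h (0.40). Of the factors whose promoter words were searched, Nrf1 had log2 ratios of -0.44 at 2 h and -0.60 at 4 h, Yy1 -0.22 and -0.94, and Gabpa -0.28 and 0.34. Gabpb1, the partner of Gabpa, was at least 2-fold lower at 4 h (-1.48), but its 2 passing probe sets differed, with an SD of 0.75 in that ratio.

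Nuclear genes for the products' partners stood higher than the members. Of 84 passing respiratory chain genes 81 were above 0 h at 4 h (96.4%, against 46.1% of all genes), with a median of 0.49. None was at least 2-fold lower and 1 was higher (1.19%), against 14.4% of all genes lower and 2.32% higher. The members' median minus that of the respiratory chain genes was -0.30, and -0.10 and -0.17 after quantile normalization and loess. For 42 passing cytosolic ribosomal protein genes the median was 0.29, with none beyond 2-fold, against the same shares of all genes. Their median relative to all genes was 0.36 as scaled here and turned to -0.02 and -0.03 under quantile normalization and loess. Members varied more than either of these brighter groups and less than genes at large at 4 h, with an SD over genes of 0.53, against 0.31 for respiratory chain genes, 0.29 for cytosolic ribosomal protein genes and 0.80 over all genes.

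**Figure D4:**
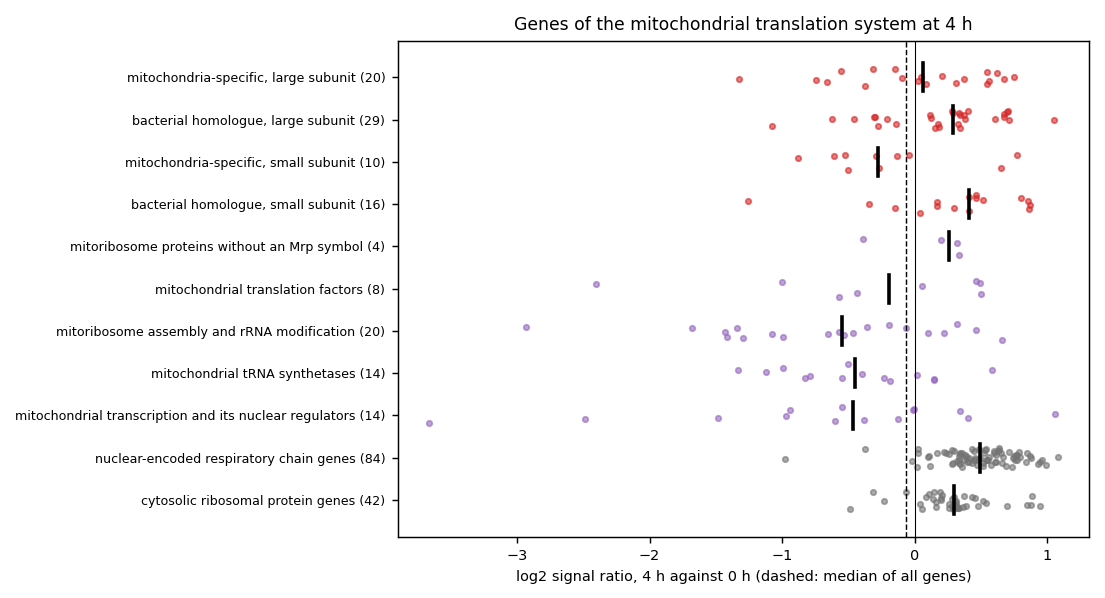
Log2 signal ratio at 4 h against 0 h (horizontal axis) of every passing gene (points), by list, with the list's median as a black bar, the number of genes in brackets and the median of all genes as a dashed line. Assembly genes have a median of -0.55 and respiratory chain genes one of 0.49, and mitochondria-specific members of the small subunit lie lower (-0.28) than those with a bacterial counterpart (0.41); relative to all genes the median of cytosolic ribosomal protein genes turned below 0 (-0.02 and -0.03) under quantile normalization and loess.

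Promoter words were set beside the ratios. In all 7 words were searched on both strands of the 300-base promoters: NRF1 (GCGCATGCG), a shorter NRF1 word of 6 letters (TGCGCA), ETS (CCGGAAGT), YY1 (AAGATGGCG), E-box (CACGTG), GC box (GGGCGG) and the start-site box with the letters TATAAA. The shorter NRF1 word is not contained in the longer one but can overlap it. The NRF1 word was in 9.59% of 73 member promoters (some genes have several), against 1.75% of all 32851 promoters and 3.76% of those of genes passing the filter. For YY1 these shares were 11.0%, 1.403% and 3.10%, and for ETS 16.4%, 3.89% and 8.34%. The shorter NRF1 word was at 30.1%, 7.76% and 14.0%, and the start-site box at 6.85%, 13.6% and 7.40%. The E-box was at 9.59%, 7.15% and 10.1%, and the GC box at 53.4%, 35.7% and 62.7%. Member promoters thus held NRF1, YY1 and ETS words more often than those of genes at large, and E-boxes and GC boxes about as often or less often than those of expressed genes.

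The 7 members whose NRF1 words are printed above stood low within the family at 4 h. Their median log2 ratio was -0.30, with 6 of 7 below 0 h and all 7 lower at 4 h than at 2 h, against a median of 0.32 for 60 members without the word. Of those 60 members, 15 were below 0 h and 34 were lower at 4 h than at 2 h. Over all 9723 genes these counts were 5240 and 5467. At 2 h the medians of members with and without the word were 0.01 and 0.29. The values at 4 h ran through -1.08 for Mrpl9, -0.61 for Mrps18b, -0.30 for Mrpl32, -0.30 for Mrpl22, -0.28 for Mrpl17, -0.14 for Mrpl10 and 0.08 for Mrpl39. Over all settings the difference in medians lay between -0.63 and -0.40, and the number below the median of all genes ran between 4 of 6 (suffixed probe sets left out) and 7 of 7. Over all genes passing the filter, by contrast, the median at 4 h was -0.06 both for 350 genes with the word and for 7571 without it. Mrpl44 and Mrps2, the lowest members, lacked the full word. The shorter NRF1 word was held both by Mrpl44 and by Mrpl11, the highest member at 4 h. The 21 members with the shorter word had a median of 0.17 at 4 h, with 9 below 0 h, against 0.31 for 46 members without. Of those 46 members, 12 were below 0 h.

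Other words went with other ratios. The 5 members with an E-box (Mrpl2, Mrpl20, Mrpl36, Mrpl37 and Mrps18c) were all above 0 h at 4 h, with a median of 0.68 against 0.19 for 62 members without, while over all genes the medians were -0.04 and -0.07. Of the 62 members without, 21 were below 0 h. Mrpl20, printed above, had signals of 2741, 4212 and 4379 at 0, 2 and 4 h (0.68). Of 8 members with a YY1 word 7 were above 0 h at 4 h, with a median of 0.32 against 0.18 without. Of the 59 members without that word, 20 were below 0 h. The 12 members with an ETS word had a median of 0.37, against 0.20 without, and spanned -0.88 (Mrps22) to 0.86 (Mrps18c). For the GC box the medians at 4 h were 0.32 for 34 members with it and 0.20 for 33 without. For the start-site box they were 0.18 for 5 members and 0.28 for 62. A word is a match of letters and not a bound site, the numbers of genes are small, the words were set beside ratios already known, and none of these differences was tested.

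**Figure D5:**
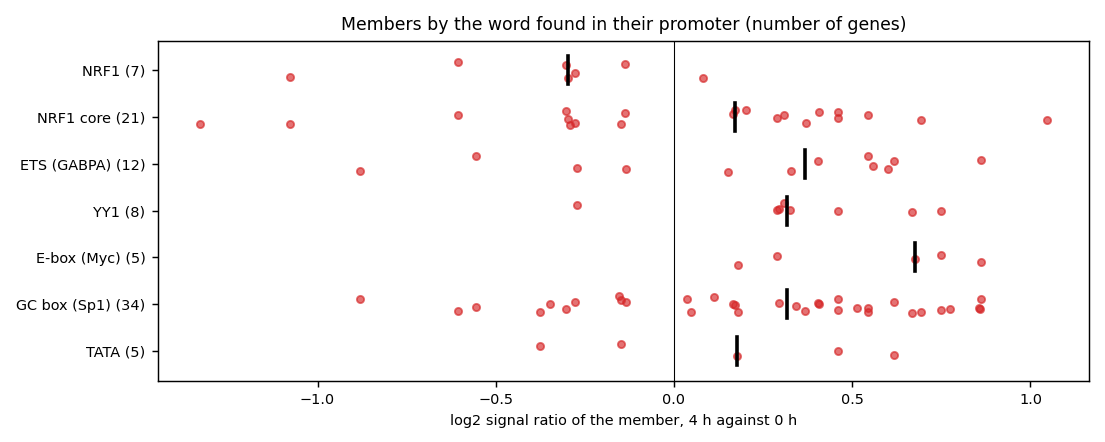
Log2 signal ratio at 4 h against 0 h (horizontal axis) of each member (points) by the word in its promoter, with the median as a black bar and the number of members in brackets. A member with several words appears several times, and the label NRF1 core stands for the shorter NRF1 word. The 7 members with the NRF1 word lie between -1.08 and 0.08 and the 5 with an E-box between 0.18 and 0.86; the zero line moves with the scaling.

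Many member promoters face another gene. A start on the opposite strand, reading away and at most 1000 bases off, was annotated for 25 of 67 members (37.3%), against 20.4% of 7921 genes passing the filter. In 17 of these pairs, counted once from each member, the neighbour passed too, and in 10 of the 17 the member and its neighbour had opposite signs at 4 h. Over all genes 46.1% were above 0 h at 4 h, and no count was made for pairs of other genes. Some of the opposite signs lay near 0 and follow the scaling, as with Mrpl41 (0.02) and its neighbour Pnpla7 (-0.05). Mrpl46 and Mrps11 face each other with starts 42 bases apart and are counted from each side. Mrpl46 had 2202, 1841 and 1698 at 0, 2 and 4 h (-0.38) and Mrps11 2676, 2953 and 3280.3 at 0, 2 and 4 h (0.29), the first lower and the second higher at each step.

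In 3 of the 17 pairs the neighbour was at least 2-fold lower at 4 h while the member was not, a share of 17.6% of neighbours against 14.4% of all genes. Twnk, the mitochondrial DNA helicase, had 759.6, 652 and 287 at 0, 2 and 4 h, a log2 ratio of -1.41, beside -0.56 for Mrpl43. Gga3, a Golgi sorting adaptor, had -1.46 beside 0.17 for Mrps7, and Eme1, a DNA repair endonuclease subunit, -1.32 beside 0.60 for Mrpl27. Helq, a DNA repair helicase whose start lies 159 bases from that of Mrps18c, had -0.79, while Mrps18c had 0.86. The reverse order was seen for Ndufb5, a complex I subunit, with 0.61 beside -0.62 for Mrpl47. The same pairs were not counted among other genes.

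Length of the gene did not order the members. The median genomic span was 7.69 kb for the members and 23.3 kb for all genes. Across the 76 members, which share 3 arrays, Spearman's rho between span and log2 ratio was -0.03 at 2 h and 0.07 at 4 h. Across all 9690 genes with a known span it was -0.15 and -0.09. The 19 lowest and 19 highest members at 4 h had median spans of 7.75 kb and 8.72 kb.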

How the data were processed

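The authors deposited an intensity for each probe set, linear and already scaled, since the 2% trimmed mean over 45101 probe sets was 150 on every array. The submitters' processing notes name GCOS 1.4. Which signal algorithm they used is not stated there. Instrument files gave array design, module and hybridisation time, per the file headers.

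Here every array was brought to a 2% trimmed mean of 500, values below 100 were raised to 100, and ratios were formed on the log2 scale. To pass, a probe set needed a mean log2 signal of at least that of 200. Probe sets with 1 symbol stood for genes (symbols updated through the RefSeq table), 64 control probe sets were left out, and a gene took its brightest passing probe set. Single arrays allow no test, so differences of at least 2-fold and medians are given beside all genes, and the number of arrays limits the precision. The counting step was tested on simulated data.

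The members, gene lists, promoter words and classes were chosen with earlier results of these data known. Named members are those at least 2-fold different in any comparison, the 10 highest and 10 lowest at 4 h, the 3 brightest per subunit and those whose probe sets differ by over 1. In other lists the 2 highest and 2 lowest at 4 h are named. Others were chosen after their values were seen: Mrps18a, Mrps25, Mrpl20, the members with an NRF1 word or an E-box, the factors whose words were searched, and the neighbours. Alternatives were 4 other scalings, 2 other floors, an offset of 50, no filter, filters of 400 and 1000, the mean over probe sets, suffixed probe sets left out, symbols as given and Mrps18a and Mrps18b classed with a bacterial counterpart. Work was done in Python 3.11.15 with pandas 2.3.3, numpy 2.4.6, statsmodels 0.14.6, matplotlib 3.10.9 and scipy 1.17.1.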

Additional observations from a re-analysis of the deposited data

How the results depend on the processing

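With 1 array per time point no replicate could be left out. No paired analysis was possible because each group holds 1 array and the groups share only 1 replicate number. A median counts as moved at a shift of at least 0.1 log2, and a count beyond 1.5 times. Of the alternative values for the comparisons 224 stayed and 50 moved, and of those for single members 385 stayed and 6 moved; no called member changed sign. The cause of the shifts was not tested. The filter of 1000, the regrouping of Mrps18a and Mrps18b and the differences between classes, promoter words and respiratory chain genes were added after seeing the data. Members at least 2-fold lower at 4 h numbered 1 with equal medians and 5 with spike-in scaling, and members higher numbered 10 with equal medians and 0 with quantile, loess, spike-in scaling or averaged probe sets. Over all genes, the lower and higher shares at 4 h were 8.95% and 7.53% with equal medians, 22.5% and 0.689% with spike-in scaling, and 10.2% and 4.43% with quantile. At 4 h against 2 h, 0 members were lower with equal medians, quantile, loess or the filter of 1000, and 2 without suffixed probe sets. The members' relative median was 0.126 at 2 h with the filter of 1000, and at 4 h it was 0.047 with quantile, 0.040 with loess and 0.097 with the filter of 1000. Small minus large subunit was 0.176 without suffixed probe sets and 0.148 with the filter of 1000. Within the small subunit the class difference was -0.585 after averaging probe sets and -0.806 without suffixed ones, and the NRF1 difference was -0.396 without them. Members minus respiratory chain genes was -0.103 with quantile and -0.169 with loess. The remaining values are medians relative to all genes at 4 h. With quantile, loess and the filter of 1000 in turn, they were -0.017, -0.031 and 0.110 for cytosolic ribosomal proteins, 0.150, 0.209 and 0.340 for the respiratory chain, and 0.087, 0.091 and 0.070 for ribosomal proteins without an Mrp symbol. Translation factors were at 0.019 (quantile), 0.00084 (loess), 0 (floor of 200), 0.033 (filter of 400), -0.329 (suffixed left out) and 0.276 (filter of 1000). Assembly genes were at -0.611 (no filter), -0.213 (suffixed left out) and -0.600 (filter of 1000). Synthetases were at -0.171 (quantile), -0.193 (loess), -0.523 (no filter), -0.230 (filter of 400) and -0.216 (suffixed left out). Transcription genes were at -0.288 (quantile), -0.218 (filter of 400), -0.237 (suffixed left out) and 0.0052 (filter of 1000). Only some translation factor, assembly and transcription genes passed the filter of 1000. At a floor of 200 and with no filter all 18193 genes passed. Signals near the floor, such as those of Myc at 2 h and 4 h, limit the size of a ratio, while every member was at 200 or more on each array.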
